A study of Homo sapiens with 6 samples.

Results

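The genes described here are 10 components of the Notch pathway in DLD-1 cells, out of 60483 genes listed in the count tables. They are the ligand genes DLL1, DLL4, JAG1 and JAG2, the receptor genes NOTCH1, NOTCH2 and NOTCH3, and the transcription factor genes HES1, HEY1 and HES6. They were chosen by name for the place of Notch in intestinal fate choice, and each symbol matched 1 Ensembl gene ID in the tables. DLD-1 is an established human colorectal cancer line, and the 6 libraries came from cells at passage 16-19 in RPMI-1640 medium with fetal bovine serum. In 3 libraries the cells had been transfected with siRNA against AHR, the gene of the aryl hydrocarbon receptor, and in the other 3 with a control siRNA. The siRNA sequences and the hours between transfection and harvest are not stated. Whether replicates were separate cultures is not stated either, so every p-value here reflects library-to-library spread that may be technical.

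Notch signalling runs between neighbouring cells. A ligand of the Delta or Jagged family on one cell binds a Notch receptor on the next, the receptor is cut by ADAM proteases and gamma-secretase, and its intracellular part enters the nucleus, where it joins RBPJ and Mastermind proteins to switch on genes such as HES1. In the intestinal crypt, HES1 represses ATOH1, so that cells with active Notch become absorptive and cells that present Delta ligands tend to become secretory. HES6 is a relative of HES1 that is known to oppose it, and HEY1 is a further direct Notch target.

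HES1 is the member whose own promoter is best known for its RBPJ sites, so the stretch that holds them is shown first. The capitals mark TGGGAA, the core letters of an RBPJ site, and the stretch lies at chr3:194136059-194136088 on the plus strand of GRCh38.p14, from 89 to 60 bases before the RefSeq start of HES1.
HES1: tactgTGGGAAagaaagttTGGGAAgtttc
The AHR and ARNT pair is known to bind sites with the core letters GCGTG, and 1 stretch with this core from each of 4 called members is shown for reference, with the core or its reverse complement CACGC in capitals. They lie at chr20:10674022-10674051 (minus strand) for JAG1, chr3:194136090-194136119 (plus) for HES1, chr15:40929094-40929123 (plus) for DLL4 and chr19:15201200-15201229 (minus) for NOTCH3, all in GRCh38.p14.
JAG1: gcgccctgcccgGCGTGctgggtagaggtg
HES1: cacgagccgttcGCGTGcagtcccagatat
DLL4: tggtcacctcggCACGCgcagagctggggg
NOTCH3: tggggatggggtGCGTGggcgttcacgagg
RefSeq promoter windows, from 250 bases before to 50 after a gene's start, were matched for 8 of the 10 members, all but DLL1 and HEY1. GCGTG was found on either strand in 6 of these 8 windows, against 36.5% of the 35116 windows in the table, with 4 matches in JAG1, 2 each in NOTCH1 and HES1 and none in NOTCH2 or HES6. TGGGAA was found in the HES1 window alone among the 8, against 24.0% of all windows. The N box CACNAG, the site through which HES proteins repress genes including their own, was found in 5 of the 8 windows, with 4 matches in HES1, against 38.0% of all windows. The windows of these members are 59.0% to 79.7% G and C, and the motifs differ in base composition. The G and C content of all windows was not computed, so the shares above are not matched for it. These matches describe letters and not binding.

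The targeted gene was lower in the libraries labelled AHR siRNA. AHR stood at 95.8, 87.4 and 94.95 CPM (counts scaled to a common library size with TMM, a scaling that balances most genes) in the AHR siRNA libraries, against 117, 144 and 132 CPM in the control siRNA libraries, 70.9% of control (log2 fold change -0.50 ± 0.08 SE, adjusted p = 1.98e-05 by edgeR). The 6 libraries held 11567736 to 15037145 counts. The call rule was an adjusted p under 0.05. It called 60.1% of the 14900 genes that passed the filter on low counts (30.0% up, 30.1% down in AHR siRNA cells), so a call by itself sets no gene apart here. The median size of the log2 fold change of called genes was 0.59, larger than that of AHR. The fall of AHR alone therefore does not show which libraries received AHR siRNA. Scaling by library totals alone moved the median gene by 0.148 (log2) and made 64.7% of calls higher, against an even split with TMM and 58.0% with upper-quartile factors. Control siRNA replicate 1 stood apart in transcript length: the 1136 tested genes with a transcript of at least 8 kilobases had a median deviation from their own mean of -0.13 (log2 CPM) in that library, against 0.05 in each of the other two controls. In the AHR siRNA libraries the median deviations were -0.03, -0.05 and 0.10 in replicates 1, 2 and 3. Chi-square per degree of freedom measures how far the counts of 2 libraries differ beyond counting error. It was 1.51 between control siRNA replicates 2 and 3, and 7.86 and 6.86 between replicate 1 and each of them. Pairs of AHR siRNA libraries gave 3.07 to 4.99. Markers of colon epithelium were present, with EPCAM at 622 CPM in AHR siRNA and 742 CPM in control siRNA libraries on average and the intestinal factor CDX2 at 192 and 225 CPM, while LGALS4 stood at 1.14 and 1.28 CPM and CDX1 at 0.548 and 0.315 CPM. The summed level of 10 such markers was 8030 to 8350 CPM in AHR siRNA and 11600 to 13200 CPM in control siRNA libraries, with 5 lower and 1 higher of 9 tested, and its part in the results was not tested. The largest parts of that sum came from KRT8, at 3902 CPM in AHR siRNA and 6359 CPM in control siRNA libraries on average, and KRT18, at 1756 and 2829 CPM. The marker that rose was VIL1, at 33.5 CPM in AHR siRNA and 7.47 CPM in control siRNA libraries. VIL1, with 1617 counts over the libraries, shares 44.0% of its exon bases with USP37 on the other strand, which had 1238. Strandedness is not stated, so the source of the VIL1 counts is uncertain. All libraries came from the DLD-1 line. In bulk libraries a change in the share of its cells that express a gene and a change of RNA per cell cannot be told apart.

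Of the 10 members, 9 passed the filter and 8 were called, 4 higher and 4 lower in AHR siRNA cells. Of all tested genes, 60.1% were called, 30.0% higher and 30.1% lower. The median log2 fold change was 0.04 over the 9 members, against 0.01 over all tested genes. Delta ligands and the receptor NOTCH3 were higher, while the Jagged ligands and HES1 were lower. AHR siRNA and control siRNA values were fully separate for 6 of the 9 members, against 63.7% of all tested genes, with AHR siRNA libraries above for 3 members (32.0% of all tested genes) and below for 3 (31.7%). Those 6 were DLL1, DLL4, JAG1, JAG2, NOTCH3 and HES1, and each of them kept its direction and its call under all 16 alternatives tried. NOTCH1 and NOTCH2 were called with smaller changes that were lost under some alternatives, HES6 was not called, and HEY1 was too low to test.

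**Figure D1:**
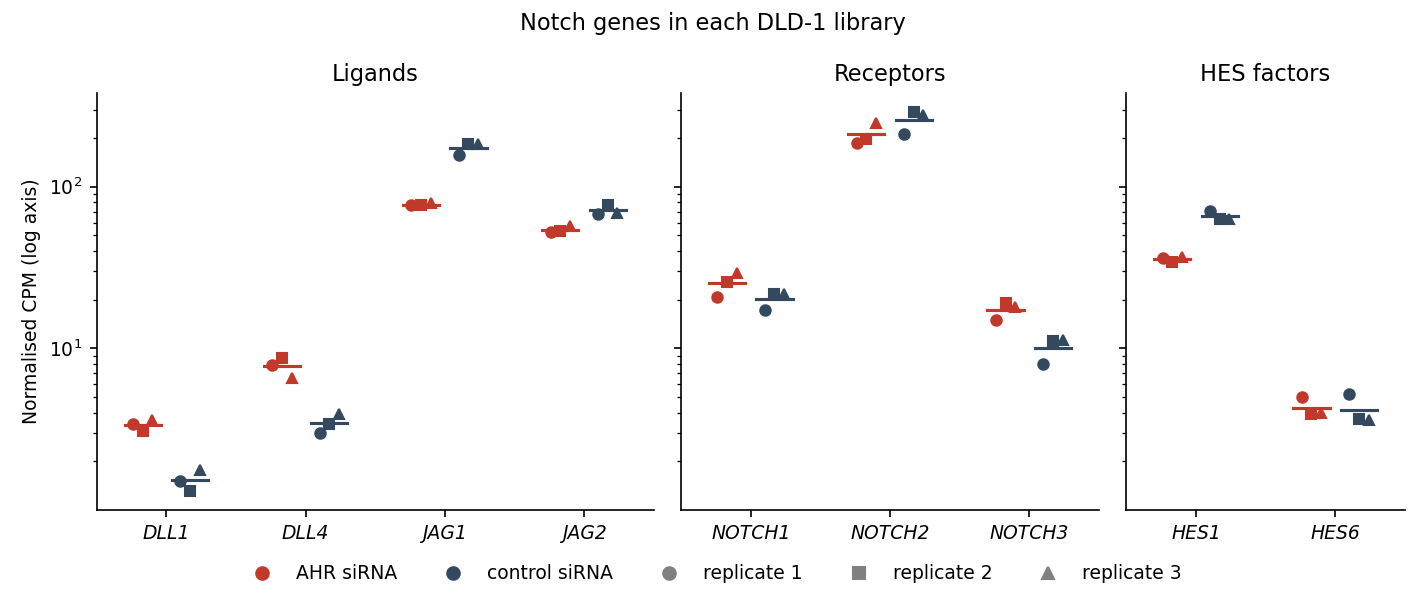
Normalised CPM (log axis) of the 9 tested Notch genes in each library, with AHR siRNA libraries in red at the left of each gene and control siRNA libraries in dark blue at the right; symbols mark replicates and bars mark group means. DLL1, DLL4 and NOTCH3 were higher in every AHR siRNA library than in any control, JAG1, JAG2 and HES1 lower, and NOTCH1, NOTCH2 and HES6 overlapped between groups.

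JAG1, a Jagged-family ligand and the ligand with the highest level in control cells, fell the most of the members. It stood at 77.2, 76.6 and 78.7 CPM in the AHR siRNA libraries, against 158, 184 and 183 CPM in the control siRNA libraries. The AHR siRNA values lay within a narrow band, and the lowest control, replicate 1, was far above them. The means were 77.5 ± 1.1 and 175 ± 15 CPM (SD, n = 3 each), 44.3% of control, with a log2 fold change of -1.17 ± 0.07 SE (adjusted p = 1.02e-10 by edgeR). JAG2, the second Jagged ligand, stood at 52.6, 53.5 and 56.8 CPM in the AHR siRNA libraries, against 67.5, 77.2 and 69.1 CPM in the control siRNA libraries. All AHR siRNA values lay below all control values, and the change was smaller than that of JAG1, at 76.2% of control and a log2 fold change of -0.39 ± 0.07 SE (adjusted p = 0.000167 by edgeR). The size of the JAG2 change depended on the processing: its log2 fold change was -0.25 with library totals alone and -0.63 with length and GC trends removed.

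The Delta ligands were scarce and higher in AHR siRNA cells. DLL4, a Delta-like ligand best known from sprouting vessels and also present in crypt secretory progenitors, stood at 7.87, 8.75 and 6.54 CPM in the AHR siRNA libraries, against 3.001, 3.38 and 3.92 CPM in the control siRNA libraries. The lowest AHR siRNA library, replicate 3, was above the highest control, and DLL4 was 2.25-fold higher, with a log2 fold change of 1.17 ± 0.18 SE (adjusted p = 1.24e-05 by edgeR). DLL1, the Delta ligand of early secretory cells in the crypt, stood at 3.40, 3.09 and 3.598 CPM in the AHR siRNA libraries, against 1.501, 1.31 and 1.77 CPM in the control siRNA libraries. These values rested on 41, 42 and 49 counts in AHR siRNA and on 20, 19 and 23 counts in control siRNA libraries. The groups were well apart, with a log2 fold change of 1.14 ± 0.23 SE (adjusted p = 0.000351 by edgeR) and a 95% interval from 0.65 to 1.63, a wide range set by the low counts. DLL3, the remaining Delta-like gene, had 4 counts over the AHR siRNA libraries and 4 over the controls and was not tested.

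DLL4 is also an endothelial gene, so markers of other cell types are given beside it. The summed level of 8 endothelial markers was 8.70 to 10.1 CPM in the AHR siRNA libraries, against 11.2 to 14.0 CPM in the control siRNA libraries. KDR and EMCN were at 0 in all 6 libraries, CDH5 had no count in AHR siRNA libraries, and most of the sum came from CLDN5, ESAM and VWF. Within the sum the markers differed in direction: VWF was higher, at 2.22 CPM in AHR siRNA and 1.22 CPM in control siRNA libraries (adjusted p = 0.0122 by edgeR), ESAM was lower, at 3.05 and 6.79 CPM (adjusted p = 5.8e-05), and CLDN5 was not called. Their part in the DLL4 result was not tested. Fibroblast markers summed to 2.13 to 3.31 CPM in AHR siRNA and 2.23 to 3.15 CPM in control siRNA libraries, with 4 of 8 at 0 throughout, and leukocyte markers to 2.13 to 2.94 and 3.23 to 4.21 CPM, with 2 of 8 at 0.

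The make-up of the ligand transcripts differed between the groups in a way that needs no scaling between libraries. Per kilobase of exon, JAG1 made up 43.2%, 42.4% and 42.7% of the summed CPM of the 4 ligands in AHR siRNA libraries, against 59.3%, 60.0% and 61.8% in control siRNA libraries. JAG2 made up 43.6% ± 1.1 in AHR siRNA and 35.8% ± 1.6 in control siRNA libraries (SD, n = 3 each). With the longest transcript as length, JAG1 made up 50.8% and JAG2 36.3% in AHR siRNA libraries, against 68.2% and 28.4% in control siRNA libraries. DLL4 made up 8.33% ± 1.30 in AHR siRNA and 2.32% ± 0.24 in control siRNA libraries (SD, n = 3 each). The share of DLL1 was 5.35% ± 0.36 in AHR siRNA and 1.53% ± 0.26 in control siRNA libraries (SD, n = 3 each). None of these shares overlapped between groups, and each gave p = 0.1 in a two-sided exact permutation test, which is the smallest p that 3 libraries against 3 allow. The 4 shares of a library add up to a fixed whole, so they are not separate results. JAG2 gained share although its CPM fell to 76.2% of control, while JAG1 fell to 44.3%. Of single tested genes, 63.7% did not overlap between groups, a figure for CPM and not for shares.

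**Figure D2:**
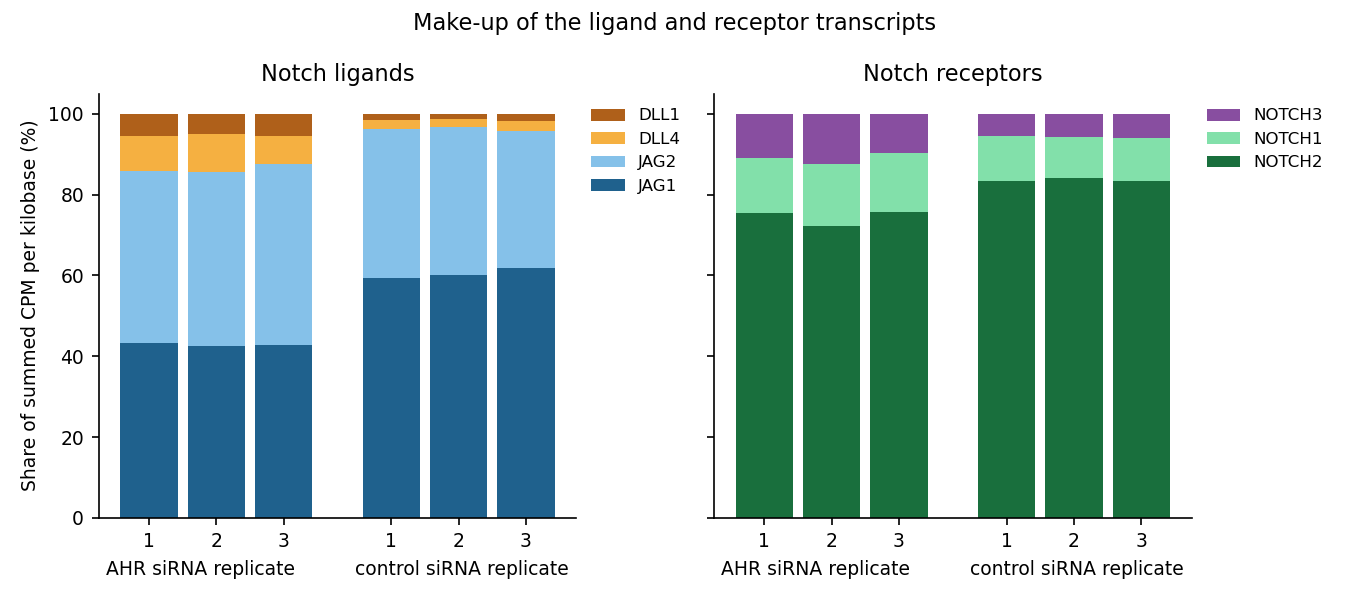
Share of each gene in the summed CPM per kilobase of exon of the Notch ligands (left) and receptors (right), in percent, for each AHR siRNA library and each control siRNA library. JAG1 took about 43% of the ligand sum in AHR siRNA and about 60% in control siRNA libraries, and NOTCH2 took 74.5% and 83.6% of the receptor sum on average.

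NOTCH2 was the most abundant receptor per length in both groups, and the receptors did not move together. NOTCH3, a receptor that is itself a known Notch target in other cells, stood at 14.9, 19.05 and 18.0 CPM in the AHR siRNA libraries, against 7.95, 11.04 and 11.3 CPM in the control siRNA libraries. Its groups did not overlap, and the log2 fold change was 0.78 ± 0.14 SE (adjusted p = 6.4e-05 by edgeR), 171% of control. NOTCH1, which with NOTCH2 maintains crypt progenitors, stood at 20.6, 25.7 and 29.3 CPM in the AHR siRNA libraries, against 17.3, 21.5 and 21.8 CPM in the control siRNA libraries. The groups overlapped, since AHR siRNA replicate 1 lay below control replicates 2 and 3, and the log2 fold change was 0.32 ± 0.12 SE (adjusted p = 0.0267 by edgeR). This call was lost without AHR siRNA replicate 2 (0.31, adjusted p = 0.0839), without AHR siRNA replicate 3 (0.20, adjusted p = 0.179), without control siRNA replicate 1 (0.21, adjusted p = 0.0759) and with length and GC trends removed (0.07, adjusted p = 0.532).

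NOTCH2 stood at 186, 197 and 249 CPM in the AHR siRNA libraries, against 212, 288 and 276 CPM in the control siRNA libraries. AHR siRNA replicate 3 lay above control replicate 1, and the log2 fold change of -0.30 ± 0.11 SE (adjusted p = 0.0228 by edgeR) lost its call under 7 of the 16 alternatives, with adjusted p up to 0.289. Leaving out AHR siRNA replicate 1 or 2, or control siRNA replicate 2 or 3, was enough to lose it (adjusted p = 0.14, 0.124, 0.0929 and 0.0815). Part of the NOTCH2 gene is copied in the NOTCH2NL genes, and how multiply mapped reads were treated is not stated, so its level is uncertain. The copies listed, NOTCH2NLA and NOTCH2P1, had at most 6 counts in any library.

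All 3 receptors have transcripts of 8666 bases or more, and within each group each was lowest in replicate 1, in AHR siRNA and in control siRNA libraries alike. Control replicate 1 was also the library with the lowest median deviation for long transcripts, and AHR siRNA replicate 3, the highest for NOTCH1 and NOTCH2 in its group, had the highest. AHR siRNA replicate 1 was not the lowest of its group in that deviation, at -0.03, against -0.05 in replicate 2. NOTCH3 was highest of its group in AHR siRNA replicate 2. Removing length and GC trends left NOTCH3 at 0.53 (adjusted p = 0.000345) and NOTCH2 at -0.41 (adjusted p = 3.58e-05) and NOTCH1 without a call, and the part of length was not tested further. NOTCH4, mainly an endothelial receptor, had 21 counts over the AHR siRNA libraries and 13 over the controls and did not pass the filter.

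Ratios between receptors within a library need no scaling between libraries. The log2 ratio of NOTCH2 to NOTCH3 counts was 3.64, 3.37 and 3.79 in AHR siRNA libraries, against 4.73, 4.70 and 4.61 in control siRNA libraries, a mean difference of -1.08. The ratio of NOTCH1 to NOTCH2 differed by 0.61 and that of NOTCH1 to NOTCH3 by -0.48 on the same scale, in both cases with no overlap between the groups. Per kilobase of exon, NOTCH2 took 74.5% ± 2.0 of the receptor sum in AHR siRNA and 83.6% ± 0.4 in control siRNA libraries (SD, n = 3 each), and NOTCH3 11.04% ± 1.36 in AHR siRNA and 5.82% ± 0.26 in control siRNA libraries. Of 9 pairs of members compared in this way, 7 did not overlap between groups. Each of those 7 had an exact permutation p of 0.1, the smallest possible, or 0.129 adjusted over the 9 pairs. No share over all pairs of genes was computed. The share of single tested genes that did not overlap, 63.7%, is for CPM and not for ratios, and the 9 pairs reuse some members.

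Other pairs set the ligands against each other and against HES1. The log2 ratio of DLL1 to JAG1 counts was -4.51 ± 0.09 in AHR siRNA and -6.81 ± 0.24 in control siRNA libraries (SD, n = 3 each), a difference of 2.30, and that of JAG1 to JAG2 differed by -0.78. DLL1 and DLL4 kept close to the same ratio, at -1.18 ± 0.32 in AHR siRNA and -1.15 ± 0.18 in control siRNA libraries (SD, n = 3 each, exact permutation p = 0.9), and the sign of that difference turned when 1 library was left out. The ratio of DLL1 to HES1 differed by 2.01.

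HES1, the repressor that carries Notch activity to the secretory genes, fell in AHR siRNA cells. It stood at 35.95, 34.4 and 36.6 CPM in the AHR siRNA libraries, against 71.2, 62.7 and 63.15 CPM in the control siRNA libraries. The lowest control was well above the highest AHR siRNA library, and control replicate 1 was the highest of all. the log2 fold change was -0.88 ± 0.08 SE (adjusted p = 1.24e-08 by edgeR), 54.3% of control, and it ran from -0.92 to -0.73 over the 16 alternatives. HES6 stood at 4.97, 3.90 and 3.97 CPM in the AHR siRNA libraries, against 5.18, 3.66 and 3.615 CPM in the control siRNA libraries. Replicate 1 was the highest in both groups and the groups overlapped fully, with a log2 fold change of 0.04 ± 0.20 SE (adjusted p = 0.875 by edgeR). Its 95% interval ran from -0.37 to 0.45, so changes of that size remain possible, and its sign turned under 4 alternatives. The log2 ratio of HES1 to HES6 within a library was 3.06 ± 0.19 in AHR siRNA and 3.99 ± 0.19 in control siRNA libraries (SD, n = 3 each).

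HEY1 had 0, 2 and 1 counts in AHR siRNA replicates 1, 2 and 3, against 1, 0 and 1 counts in control siRNA replicates 1, 2 and 3. Every library lay under 3 counts, the limit that a count of 0 allows, or 0.207 to 0.249 CPM, and a difference was not detectable at this depth. Such limits cover counting error only.

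**Figure D3:**
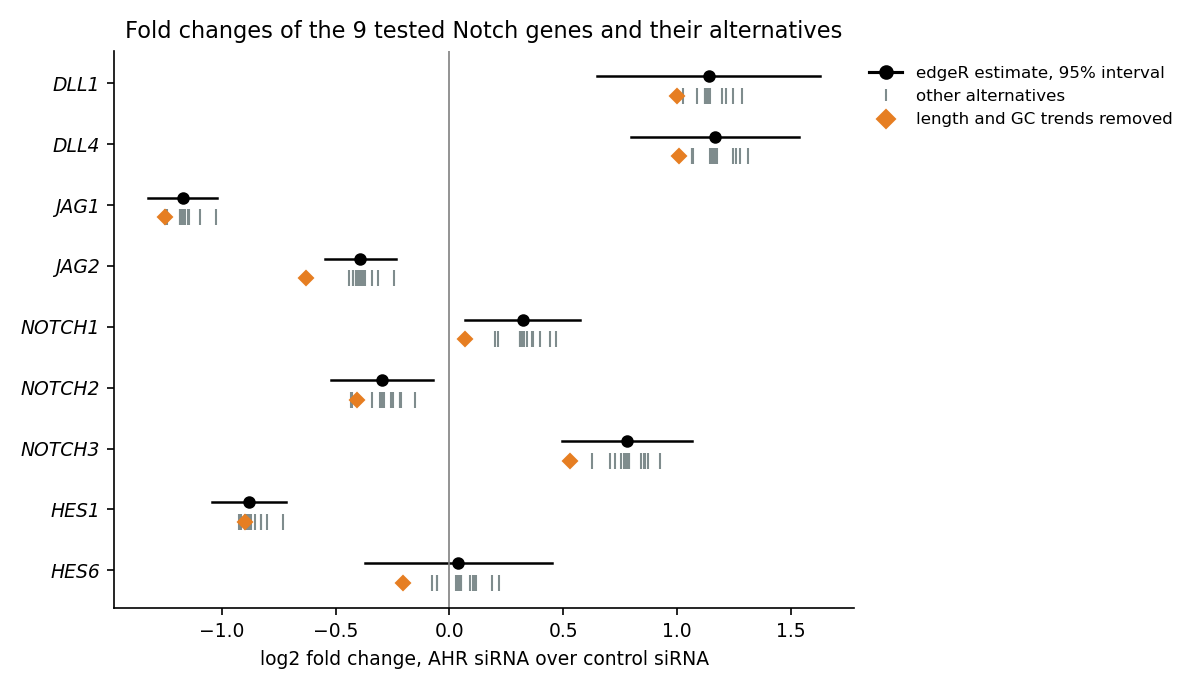
Log2 fold changes of the 9 tested Notch genes, AHR siRNA over control siRNA: black points with bars are edgeR estimates with 95% intervals, grey ticks the other alternatives and orange diamonds the fit with length and GC trends removed. DLL1, DLL4, NOTCH3, JAG1, JAG2 and HES1 stayed on one side of 0 with all settings, NOTCH1 came near 0 at 0.07 with the trends removed, and HES6 lay on both sides.

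Levels can be ordered only per length. In CPM per kilobase of exon, the order in AHR siRNA cells was HES1 (17.3), NOTCH2 (12.5), JAG2 (8.49), JAG1 (8.33), NOTCH1 (2.43), HES6 (2.10), NOTCH3 (1.84), DLL4 (1.62), DLL1 (1.04) and HEY1 (0.023). In control cells it was HES1 (31.9), JAG1 (18.8), NOTCH2 (15.4), JAG2 (11.1), HES6 (2.04), NOTCH1 (1.95), NOTCH3 (1.08), DLL4 (0.722), DLL1 (0.473) and HEY1 (0.016). Neighbours whose libraries overlapped were JAG2 and JAG1, NOTCH1 and HES6, HES6 and NOTCH3, and NOTCH3 and DLL4 in AHR siRNA cells, and JAG1 and NOTCH2, and HES6 and NOTCH1, in control cells. With the length of the longest transcript in place of all exons, JAG1 stood above JAG2 and DLL4 above NOTCH3 in AHR siRNA cells, and no other place changed. The annotation used for lengths, GENCODE 29, may differ from that of the counts.

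The genes whose profile over the 6 libraries lay closest to DLL4, among 10879 genes with a symbol and at least 5 CPM, were ADD3-AS1, ECHDC2 and MTMR9LP, with root mean square distances of 0.08, 0.09 and 0.10 on the centred log2 CPM scale. Those closest to JAG1 were TROAP, FOXN2 and KLF6, each at a distance of 0.04 or 0.05. With 2 groups of 3 libraries, closeness says mainly that the fold changes were alike.

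Of the other HES and HEY genes, HES7 and HEYL were higher and HES4 lower. HEYL, a HEY-family Notch target of vascular mural cells, had 17, 21 and 27 counts in AHR siRNA libraries, against 2, 3 and 5 counts in control siRNA libraries. That was 1.65 ± 0.30 CPM in AHR siRNA and 0.247 ± 0.122 CPM in control siRNA libraries (SD, n = 3 each). Its log2 fold change was 2.71 ± 0.42 SE (adjusted p = 1.81e-05 by edgeR). PDGFRB, a mural and fibroblast marker, was also higher, at 1.65 CPM in AHR siRNA and 0.488 CPM in control siRNA libraries. COL1A1, the other fibroblast marker tested, was lower, at 1.19 CPM in AHR siRNA and 2.08 CPM in control siRNA libraries (adjusted p = 0.0324 by edgeR), and DCN, LUM, PDGFRA and THY1 were at 0 in all libraries. HES7, a clock factor of the embryonic somites, rose to 143% of control (log2 fold change 0.52, SE 0.10). HES4 fell to 80.2% of control (log2 fold change -0.32 ± 0.11 SE, adjusted p = 0.0207 by edgeR) and lost its call without AHR siRNA replicate 1 (-0.25, adjusted p = 0.0886) or control siRNA replicate 2 (-0.30, adjusted p = 0.0541). With length and GC trends removed, HES4 stood at -0.68 (adjusted p = 7.11e-06). HES2 was not called and HES5 had no counts. Of the 9 genes in this group, 6 were tested, with a median log2 fold change of 0.07. Of these 6, 2 rose and 2 fell, beside 30.0% and 30.1% of all tested genes.

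Of 9 tested genes that modify the receptor before it reaches the surface, by glycosylation or cleavage, 5 rose and 1 fell, beside 30.0% and 30.1% of all tested genes, with a median log2 fold change of 0.40. With length and GC trends removed, 4 were higher. LFNG, the Fringe enzyme that shifts receptors towards Delta ligands, rose to 11.85 ± 0.35 CPM in AHR siRNA cells, against 5.85 ± 0.58 CPM in control siRNA cells (SD, n = 3 each). Its log2 fold change was 1.02 ± 0.13 SE (adjusted p = 2.21e-06 by edgeR). The xylosyltransferase genes GXYLT1 and GXYLT2 rose to 158.5% and 144% of control. FURIN, the convertase that makes the first cut in the receptor, fell to 70.0% of control. RFNG rose to 132%, a call lost with length and GC trends removed (0.16, adjusted p = 0.103), and it shares exon bases with GPS1 on the other strand.

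Gamma-secretase subunits moved in both directions. NCSTN, the substrate receptor of the complex, rose to 199 ± 11 CPM in AHR siRNA cells, against 111 ± 7 CPM in control siRNA cells (SD, n = 3 each). Its log2 fold change was 0.84 ± 0.07 SE (adjusted p = 6.17e-09 by edgeR). NCSTN shares 129 exon bases with COPA on the other strand. APH1B rose to 195% and PSENEN to 159% of control, and PSENEN overlaps U2AF1L4 on the other strand. APH1A, the more abundant APH1 gene, fell to 84.9% of control and lost its call without AHR siRNA replicate 2 (-0.19, adjusted p = 0.0912). PSEN2, a catalytic subunit gene, was not called, with a log2 fold change of 0.17, nor were the protease genes ADAM10 and ADAM17, with 0.09 and 0.06. Of 8 tested genes in this group, 3 rose and 1 fell, beside 30.0% and 30.1% of all tested genes, with a median of 0.13. Of 5 tested genes of ligand endocytosis, the ubiquitin ligase gene MIB2 rose to 184% and NEURL1B fell to 56.6% of control, with a median of 0.04, and MIB1 was not called, with 0.04.

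Of 8 tested genes grouped under receptor inhibition or turnover, 5 fell and 1 rose, beside 30.1% and 30.0% of all tested genes, with a median log2 fold change of -0.46. The group includes the Deltex genes DTX2, DTX3L and DTX4, and not every gene in it is an inhibitor of Notch. NUMB, an endocytic adaptor that removes Notch in dividing cells, fell to 43.0 ± 3.8 CPM in AHR siRNA cells, against 79.9 ± 6.0 CPM in control siRNA cells (SD, n = 3 each). Its log2 fold change was -0.89 ± 0.08 SE (adjusted p = 2.16e-08 by edgeR). Its paralog NUMBL fell to 62.4%, the ubiquitin ligase gene ITCH to 52.3% and DTX3L to 71.4% of control. The gene that rose was NRARP, a Notch-induced feedback inhibitor, at 38.2 CPM in AHR siRNA and 32.8 CPM in control siRNA libraries (log2 fold change 0.22 ± 0.08 SE, adjusted p = 0.0257 by edgeR), a call lost without AHR siRNA replicate 2 or 3 or without control siRNA replicate 2 or 3 (adjusted p = 0.074, 0.0859, 0.0614 and 0.16). With length and GC trends removed NRARP stood at -0.01. FBXW7, the ubiquitin ligase gene that ends the life of the active receptor, was not called, with -0.04.

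In the nuclear complex, RBPJ, the DNA-binding partner of the receptor, fell to 57.8 ± 3.4 CPM in AHR siRNA cells, against 87.5 ± 5.4 CPM in control siRNA cells (SD, n = 3 each). Its log2 fold change was -0.60 ± 0.07 SE (adjusted p = 1.2e-06 by edgeR). MAML3, a Mastermind coactivator gene, rose to 7.47 ± 0.79 CPM in AHR siRNA cells, against 1.76 ± 0.32 CPM in control siRNA cells (SD, n = 3 each). Its log2 fold change was 2.08 ± 0.20 SE (adjusted p = 3.43e-08 by edgeR). MAML3, with 366 counts over the libraries, shares 252 exon bases with MGST2 on the other strand, which had 1963. CIR1, a corepressor gene of the RBPJ complex, rose to 181% and SNW1, which binds RBPJ and the spliceosome, fell to 74.5% of control. Of 14 tested genes in this group, 6 rose and 3 fell, beside 30.0% and 30.1% of all tested genes, with a median of 0.12. Without control siRNA replicate 1, 7 were lower instead of 3, with SPEN, EP300 and KAT2B among those added, at log2 fold changes of -0.30, -0.18 and -0.26. The coactivator gene CREBBP rose to 125% of control, a call lost without AHR siRNA replicate 2 or 3 (adjusted p = 0.0547 and 0.0988). CTBP1, a corepressor gene, fell to 87.6% and lost its call without control siRNA replicate 3 (adjusted p = 0.0603). MAML2 was not called (0.33) and was called without control siRNA replicate 2 (0.63, adjusted p = 0.00394).

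**Figure D4:**
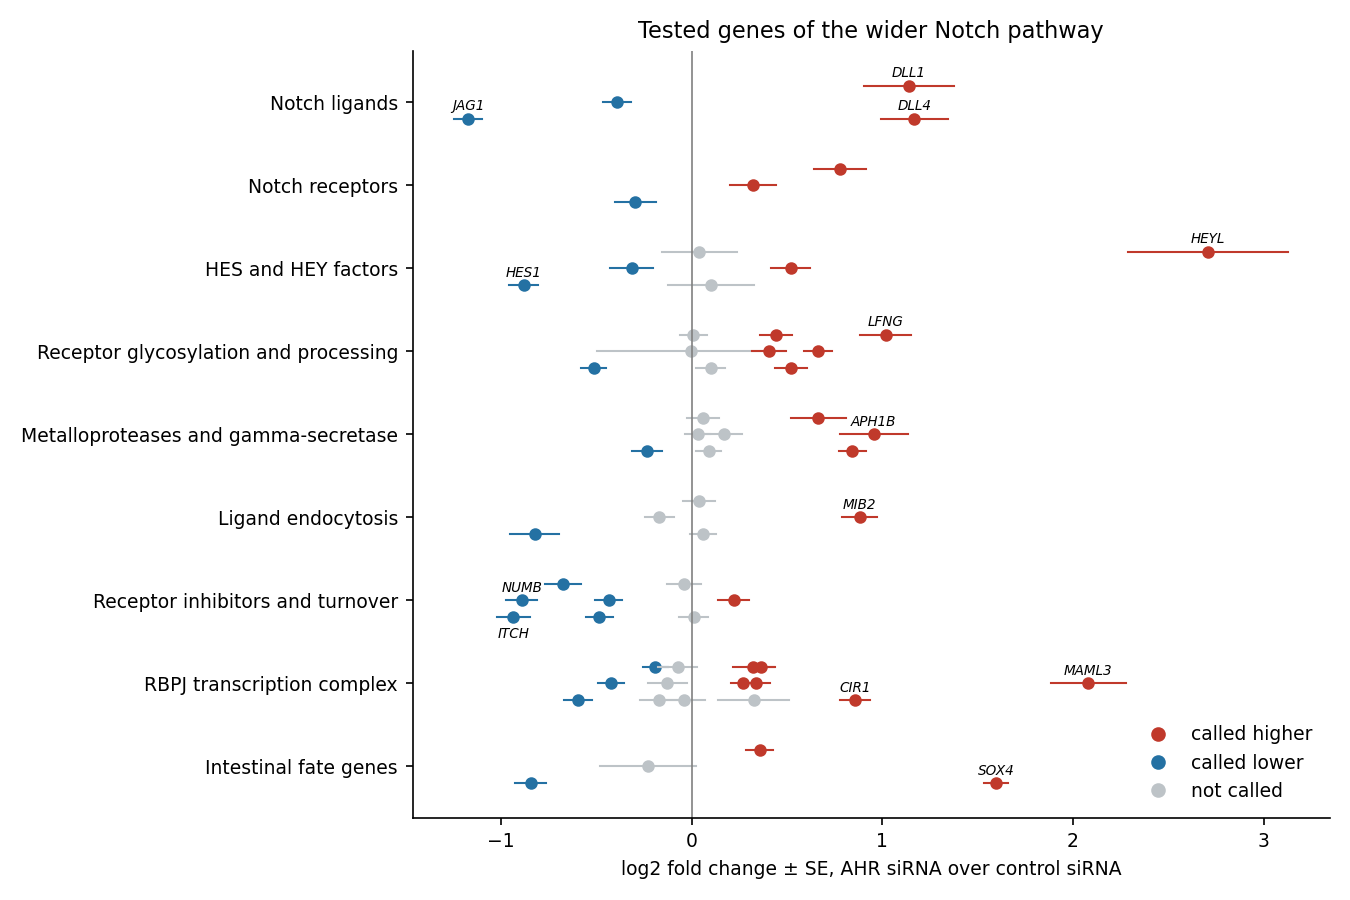
Log2 fold change with its SE, AHR siRNA over control siRNA, for each tested gene of 9 groups of the wider Notch pathway and of intestinal fate; red marks genes called higher, blue genes called lower and grey genes not called. Within every group genes lay on both sides of 0, from JAG1 at -1.17 to HEYL at 2.71.

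Over the ligands, receptors, factors and these wider groups, 57 of 65 genes were tested, 22 rose (38.6%) and 16 fell (28.1%), with a median log2 fold change of 0.06, beside 30.0% and 30.1% of all tested genes. The genes of secretory fate that HES1 controls were absent or scarce. ATOH1 had 1 count in the controls and none in AHR siRNA libraries, and NEUROG3 and INSM1 had none in any library, so no level above 0.207 to 0.249 CPM was seen in a library. GFI1, a secretory transcription factor gene, was not called, with -0.23. SOX4, a progenitor transcription factor gene, rose to 352 ± 1 CPM in AHR siRNA cells, against 117 ± 2 CPM in control siRNA cells (SD, n = 3 each), and SOX9, which marks crypt progenitors, rose to 128% of control. KLF4, a factor of differentiated cells, fell to 55.7% of control.

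An earlier analysis of these same fold changes had picked out the 7-base words GACTTAA and CACAACA in 3' untranslated regions as those most tied to lower genes, so their presence in the members is given. JAG1 and NOTCH3 each held 1 match to GACTTAA in the longest annotated 3' untranslated region, at chr20:10638433-10638459 and chr19:15159443-15159469 (GRCh38, minus strand), and the other 8 members held neither word. The word is in capitals.
JAG1: gttgagctatGACTTAAcatagccaaa
NOTCH3: gttgtcacctGACTTAAgctgagccaa
JAG1 was lower and NOTCH3 higher in AHR siRNA cells, so the 2 members with the word moved in opposite directions. RBPJ held 2 matches to GACTTAA, and NUMB, ITCH and NEURL1B each held 1 to CACAACA, and these 4 genes were lower. GXYLT1 and APH1B also held a word and were higher, and HES2, ADAM10, ADAM17, MIB1, SPEN and GFI1 each held one and were not called. Of 2245 tested genes with either word, 45.2% were called lower and 24.1% higher, against 31.3% and 31.7% of 10151 genes with neither. Because the words were chosen on these fold changes, the shares are no independent evidence, and the part of the words in the changes of JAG1, RBPJ, NUMB and ITCH was not tested.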

How the data were processed

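The authors deposited a table of whole-number counts per versioned Ensembl gene ID for each of the 6 libraries, with no rows that name no gene. The submitters' processing notes list TopHat2 (2.0.11), TopHat, HTSeq, hg19 and GRCh37 without saying what each did. Neither RNA selection nor strandedness is stated. Libraries held 11567736 to 15037145 counts. Of the IDs, 41124 had a symbol.

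The deposited counts went unchanged into edgeR 4.0.16 under R 4.3.3 (filterByExpr, TMM, glmQLFTest with the group as the only term), with Benjamini-Hochberg adjustment over all 14900 tested genes. CPM values use TMM-adjusted totals of the tested genes. The SE is the log2 fold change divided by the square root of F, and fits were tested on simulated data. Ratios within a library added 0.5 counts to each gene and were tested with SciPy 1.17.1. Alternatives used DESeq2 1.42.0, limma 3.58.1 (voom), other scalings and filters, a replicate block and each library left out. Leaving out both replicate 1 libraries, and removing length and GC trends by loess (span 0.4), were added after seeing the data. In each wider group, up to 4 further called genes with the smallest p are named, and genes whose call turned on a library. Some genes outside this rule (HES2, HES5, DLL3, NOTCH4, PSEN2, ADAM10, ADAM17, MIB1, FBXW7, RFNG, GFI1, the genes at 0 and the markers) were named after their values were seen. Some genes of the lists are not reported here by name. Members and lists were chosen with earlier results of these data known.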

Additional observations from a re-analysis of the deposited data

How the results depend on the processing

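The calls of DLL1, DLL4, JAG1, JAG2, NOTCH3 and HES1 held under all 16 alternatives. NOTCH2 lost its call with upper-quartile factors (-0.22), library totals alone (-0.15) and the DESeq2 Wald test (-0.30), which left 0 receptors called lower each time; with 1 library left out NOTCH2 ran from -0.43 to -0.21 and that count from 0 to 1. NOTCH1 lost its call with length and GC trends removed (0.066, leaving 1 receptor called higher) and ran from 0.20 to 0.44 with 1 library left out, with 1 to 2 receptors called higher. The sign of HES6 turned with the trends removed (-0.20), and it ran from -0.077 to 0.217 with 1 library left out. The difference in the log2 ratio of DLL1 to DLL4 ran from -0.19 to 0.12 with 1 library left out. With the longest transcript as length, the places in AHR siRNA cells were 3 for JAG1, 4 for JAG2, 7 for DLL4 and 8 for NOTCH3.

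Among the wider groups, HES and HEY genes called lower numbered 1 with upper-quartile factors, with library totals and without both replicate 1 libraries, and 1 to 2 with 1 library left out. Protease and gamma-secretase genes numbered 5 higher and 0 lower with upper-quartile factors and 6 higher and 0 lower with library totals, and 0 to 1 lower with 1 library left out. Ligand endocytosis genes numbered 2 higher with library totals, 2 lower without both replicate 1 libraries and with the trends removed, and 1 to 2 lower with 1 library left out. Receptor inhibition and turnover genes called higher numbered 0 with no filter, with the DESeq2 Wald test and with the trends removed, and 0 to 1 with 1 library left out. RBPJ complex genes called lower numbered 5 without both replicate 1 libraries, 6 with the trends removed and 2 to 7 with 1 library left out. The causes were not tested, and all other counts of calls stayed within 1.5 times.

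Same-numbered libraries did not pair throughout: their deviations correlated at 0.399, -0.0987 and 0.341 for replicates 1, 2 and 3. AHR siRNA replicate 1 correlated best with control siRNA replicate 1. AHR siRNA replicates 2 and 3 correlated best with control siRNA replicates 1 and 2. With the replicate number as a block, no member changed its call (NOTCH1 0.31, NOTCH2 -0.30), ligand endocytosis genes called lower numbered 2, and 9598 genes were called, against 8953 without it. Depth limits DLL1, HES6 and HEYL, which rest on few counts, and HEY1 most of all.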
